A study of Mus musculus with 24 samples.

Results

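DNA methylation of 10 senescence and longevity regulator genes was examined in the dentate gyrus of young and aged mice. The genes were Cdkn2a, Cdkn2b, Cdkn1a, Trp53, Rb1, Sirt1, Sirt6, Foxo1, Tert and Lmnb1, chosen by name for their roles. Every cytosine of the deposited table that lay in a gene or within 2000 bases of it (GENCODE M21, GRCm38/mm10) was taken, which gave 564 of 762182 cytosines, all in CpG context. Reduced representation bisulfite sequencing (RRBS), which reads methylation in CpG-rich fragments released by a restriction enzyme, had been run on micro-dissected dentate gyrus, the hippocampal region in which new granule neurons form in adults. All mice were female C57BL/6JRj animals. The 5 Young STD mice were 1.5 months old and came from standard cages. The 7 Aged STD mice and the 7 Aged ENR mice were 14 months old, the first kept in standard cages and the second in environmental enrichment (ENR), a large enclosure with tunnels and toys that are rearranged. Young ENR mice were not analysed here. The tissue holds several cell types, so a change in the mix of cells and a change within cells cannot be told apart.

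Cellular senescence is a lasting exit from the cell cycle. Cdkn2a, Cdkn2b and Cdkn1a encode inhibitors that hold cyclin-dependent kinases in check, which keeps the retinoblastoma protein Rb1 active and blocks entry into DNA synthesis. Damage and telomere signals reach Cdkn1a through the transcription factor Trp53. Sirt1 and Sirt6 are NAD-dependent deacylases of chromatin, Foxo1 is a transcription factor restrained by insulin signalling, Tert is the catalytic subunit of telomerase, and Lmnb1 is a component of the nuclear lamina that is lost in many senescent cells. CpG-rich promoters are usually unmethylated, whereas the bodies of most genes are methylated.

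A mouse had a value at 489813 to 725467 cytosines of the whole table, or 64.3% to 95.2%. The authors kept values with at least 10 reads, but the number of reads behind a percentage is unknown, and a counting interval cannot be given for it. Aged STD replicates 3, 4 and 6 stood apart: 61.4% to 62.3% of their measured cytosines lay in promoters, against 45.3% to 55.1% in the other Aged STD mice. Aged ENR replicate 4 had 59.3%. Methylation over all measured cytosines was 15.6% to 18.3% in those 3 mice and 27.6% to 39.2% in the other Aged STD mice. Over the 69036 cytosines measured in all mice it was 16.3% to 17.4%, against 18.96% to 21.5%. At the 564 cytosines, 78.6% of the possible values were present in Young STD, 76.8% in Aged STD and 75.2% in Aged ENR, and 48 cytosines were measured in all 19 mice. Of the 8216 values present, 6672 (81.2%) were exactly 0% and 422 (5.14%) were exactly 100%. The opposite strands of a CpG are read from separate molecules, and at the 36 CpGs measured on both strands the values of a mouse differed by 4.71 points on average, with a median difference of 0.

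The loci were mostly unmethylated. Averaged over the 3 groups, 488 of the 564 cytosines were below 10%, 39 lay between 10% and 80% and 37 were above 80%. A promoter was defined as the bases within 1000 of any annotated transcript start, a body as the rest of the gene and a flank as the 2000 bases to either side. Among 398 promoter cytosines 371 were below 10%, compared with 90 of 135 body cytosines. Unmethylated stretches were long in Foxo1 and Rb1, where all 43 and all 56 promoter cytosines were below 10%. Tert was the exception, with 17 of its 27 cytosines above 80%. Lmnb1 held the most intermediate cytosines, 15 of 70.

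**Figure D1:**
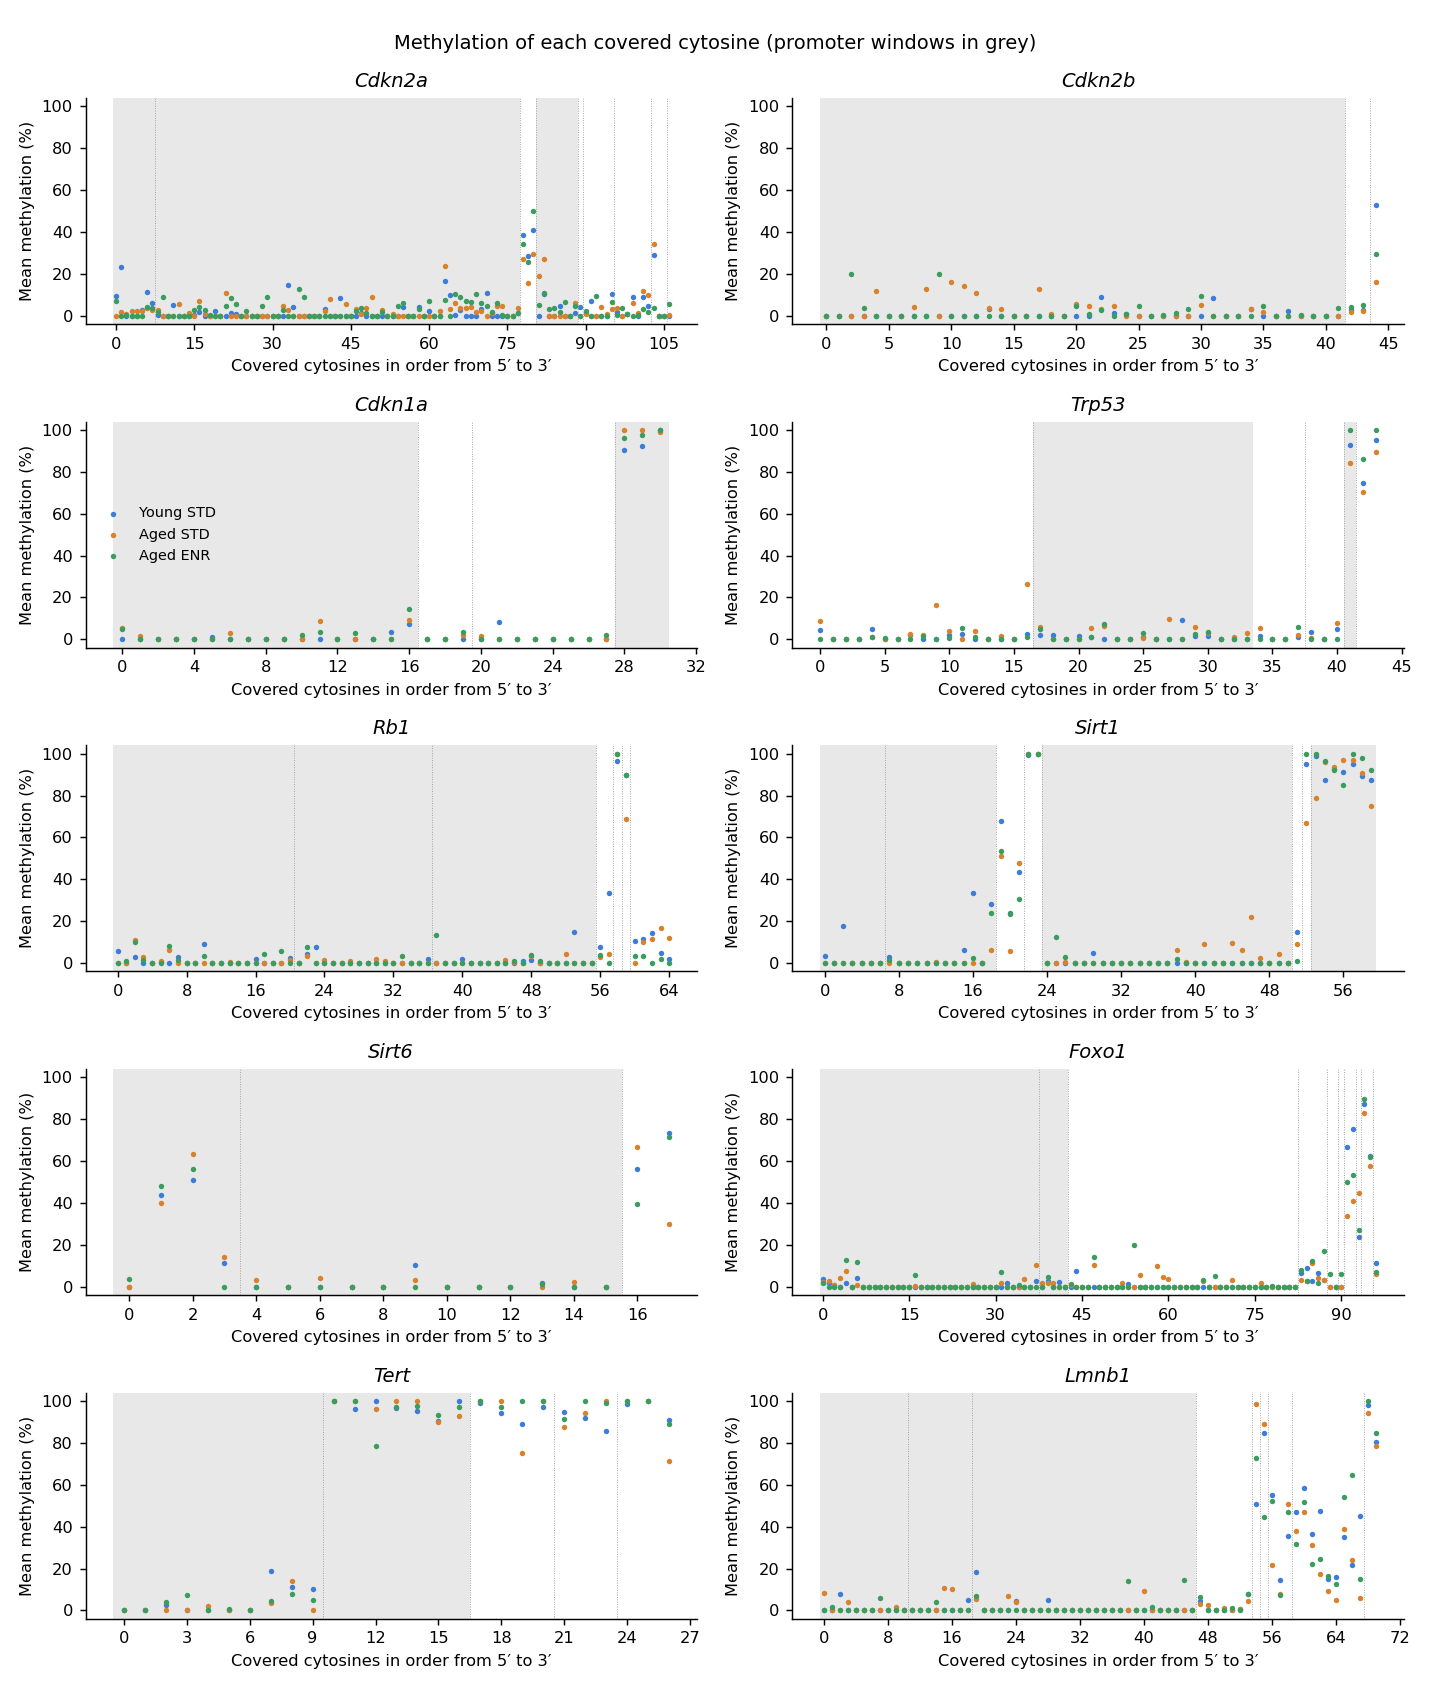
Mean methylation (percent, y axis) of each covered cytosine in each of the 10 genes, in order from 5′ to 3′ (x axis), coloured blue for Young STD, orange for Aged STD and green for Aged ENR, with promoter cytosines shaded grey and dotted lines at gaps over 200 bases. Averaged over the 3 groups, all promoter cytosines of Foxo1, Rb1 and Cdkn2b lie below 10%, and 17 of the 27 Tert cytosines lie above 80%.

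To compare regions, a site-adjusted mean was computed for each mouse, in which each cytosine was first centred on its mean over the 3 groups. The mean deviation of the cytosines a mouse had was then added to the mean level of the whole region. A missing cytosine thereby takes its mean over the groups plus the mean deviation of that mouse elsewhere in the region. All mice share part of the level of a region, and the few cytosines of a mouse can set its value. Such values can fall slightly below 0% or above 100%. A mouse needed at least 3 cytosines in a region. In Young STD mice, 5 of the 10 promoters were below 5%, as were 62.6% of the 19101 promoters measured, and 7 were below 10%, against 72.0%. The median of the 10 promoters was 4.25%, and that of all promoters 2.38%. The 9 measured bodies had a median of 20.5%, compared with 62.8% over 12972 bodies. Their percentile among all bodies ranged from 1.55 for Cdkn1a to 90.9 for Tert. The Sirt6 body had only 2 cytosines and no region value.

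**Figure D2:**
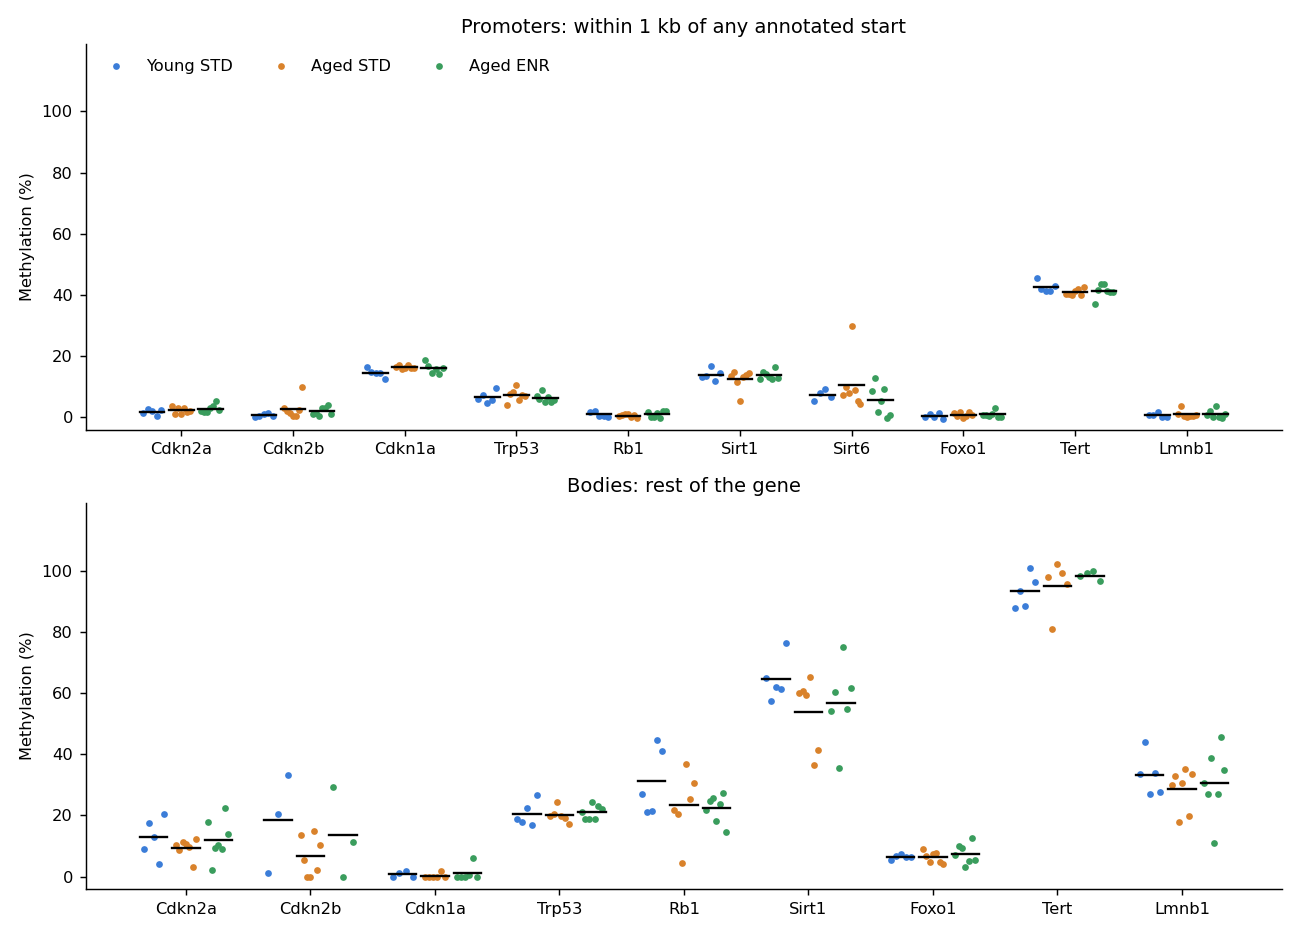
Site-adjusted methylation (percent, y axis) of each promoter (upper panel) and body (lower panel) by gene, with a point for each mouse and a bar for the group mean, in Young STD (blue), Aged STD (orange) and Aged ENR (green). The groups overlap in every region, and the Tert body lies between 80.7% and 102%.

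Cdkn2a encodes the kinase inhibitor Ink4a and, from a separate first exon and another reading frame, the Trp53 activator Arf. It had 107 measured cytosines (chr4:89274471-89294653, minus strand). The sequences below are shown because both starts of the locus were read closely, together with the upstream stretch in which Young STD mice were higher. They are given 5′ to 3′ on the strand of the gene (GRCm38, mm10), in lower case with the measured CpGs in capitals.
Cdkn2a upstream of the Arf transcript, chr4:89295523-89295653: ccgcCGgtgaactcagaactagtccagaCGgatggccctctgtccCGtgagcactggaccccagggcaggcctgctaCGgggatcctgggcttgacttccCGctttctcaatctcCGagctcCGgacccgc
Cdkn2a upstream edge of the Arf start, chr4:89294654-89294773: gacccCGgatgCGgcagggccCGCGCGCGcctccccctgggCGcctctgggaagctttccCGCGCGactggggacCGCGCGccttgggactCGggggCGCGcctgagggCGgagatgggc
Cdkn2a first coding exon and intron of Ink4a, chr4:89281833-89282053: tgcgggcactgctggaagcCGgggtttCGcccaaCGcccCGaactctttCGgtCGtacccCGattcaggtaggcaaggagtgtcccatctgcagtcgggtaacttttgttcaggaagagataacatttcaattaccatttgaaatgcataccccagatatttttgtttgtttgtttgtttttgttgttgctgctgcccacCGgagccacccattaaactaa

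All 17 CpGs in the 120 bases before the Arf start were measured, and their mean was 1.47% in Young STD, 0.77% in Aged STD and 2.45% in Aged ENR. The Cdkn2a promoter, with 86 cytosines at both starts, was 1.40%, 2.78%, 2.21%, 0.58% and 2.41% in the 5 mice of Young STD (1.88 ± 0.89%, SD). In Aged STD it ran from 1.09% to 3.62% with a median of 2.14% (2.28 ± 1.01%, n = 7), and in Aged ENR from 1.69% to 5.24% with a median of 2.58% (2.88 ± 1.27%, n = 7). Every mouse was low and the groups overlapped, with Aged STD above Young STD by 0.40 points (SE 0.60, limma adjusted p = 0.848). The 8 cytosines in the first coding exon and intron of Ink4a were 0%, 0.91%, 2.94%, 0% and 6.55% in Young STD. They reached 25.8% in Aged STD replicate 3, and the other 5 measured Aged STD mice averaged 2.72 ± 2.48%. With that mouse the Aged STD mean was 6.57 ± 9.68% (n = 6), so it decided the difference from Young STD. Aged ENR mice ranged from 2.34% to 7.93% with a mean of 4.57 ± 1.95% (n = 6).

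The 8 cytosines upstream of Arf, at positions -996 to -877 counted from the outermost annotated start, were higher in Young STD. They were 7.81%, 2.82%, 7.35%, 2.62% and 12.1% in Young STD, and ran from 0% to 5.82% (median 1.88%) in Aged STD and from 0% to 7.97% (median 0.65%) in Aged ENR. The means were 6.54 ± 3.94%, 2.15 ± 2.31% and 1.87 ± 2.95%. The Aged STD difference was -4.39 points (SE 1.69, exact permutation p = 0.0316, limma adjusted p = 0.637), which did not pass the adjusted threshold. It was -4.07 and -4.91 points in the library series 27 and 37 of the labels. An intronic stretch at positions 1097 to 1129 was intermediate, at 35.9 ± 14.8% (n = 4) in Young STD, 24.1 ± 11.8% (n = 3) in Aged STD and 41.5 ± 25.9% (n = 4) in Aged ENR. The body as a whole (10 cytosines) was 12.8 ± 6.52%, 9.44 ± 2.97% and 12.1 ± 6.57%.

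Cdkn2b, the neighbouring inhibitor of the Cdk4 and Cdk6 kinases, had 45 measured cytosines (chr4:89306299-89311039, minus strand). The bases before its start are shown because no methylation was detected there in Young STD.
Cdkn2b upstream edge of the start, chr4:89311040-89311179: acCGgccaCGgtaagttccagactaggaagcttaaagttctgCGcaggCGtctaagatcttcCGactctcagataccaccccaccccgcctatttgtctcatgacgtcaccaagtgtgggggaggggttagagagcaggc

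The 5 measured CpGs of that stretch averaged 0% in Young STD, 2.32% in Aged STD and 4.71% in Aged ENR. The Cdkn2b promoter (42 cytosines) was 0.019%, 0.52%, 1.09%, 1.53% and 0.34% in Young STD (0.70 ± 0.60%). It was 0.43% to 9.81% (median 2.10%) in Aged STD and 0.46% to 3.91% (median 1.50%) in Aged ENR, with means of 2.85 ± 3.22% and 2.05 ± 1.34% (n = 7 each). Aged STD replicate 7 alone lay at 9.81%, and without it the Aged STD mean was 1.69 ± 1.06% (n = 6). Both aged groups overlapped with Young STD: the Aged STD difference was 2.15 points (SE 1.35, limma adjusted p = 0.661), and the Aged ENR difference was 1.35 points (SE 0.65, limma adjusted p = 0.723). The body had 3 cytosines and spread widely, at 18.4 ± 16.1% (n = 3) in Young STD, 6.69 ± 6.35% (n = 7) in Aged STD and 13.6 ± 14.8% (n = 3) in Aged ENR.

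Cdkn1a, the inhibitor induced by Trp53 (chr17:29090976-29100727, plus strand), had 31 measured cytosines. Its outermost start lies in CpG-poor sequence: the window of 2001 bases around it held 17 CpGs, an observed-to-expected CpG ratio of 0.149 and 0 copies of CCGG (the same letters on both strands), and 0 of its cytosines were measured. Of 55371 such windows over all genes, 76.2% held a CCGG and the median ratio was 0.240. The promoter value therefore came from internal starts, with 17 intronic cytosines near 1% and 3 exonic cytosines above 90%. It was 16.5%, 14.8%, 14.4%, 14.5% and 12.6% in Young STD (14.6 ± 1.39%), 15.9% to 17.1% with a median of 16.3% in Aged STD (16.5 ± 0.45%, n = 7), and 14.2% to 18.8% with a median of 16.0% in Aged ENR (16.0 ± 1.69%, n = 6). Young STD replicate 1 lay within the Aged STD range and the other 4 Young STD mice lay below it. The Aged STD difference was 1.89 points (SE 1.40, limma adjusted p = 0.702). In 7 of the 18 mice, of which 2 were Young STD, 3 Aged STD and 2 Aged ENR, no exonic cytosine was measured. The value rests there on the mean over the groups plus the deviation of the mouse elsewhere, so no permutation test is given. The Aged STD difference was 1.2 points in library series 27 and 2.92 in series 37. The exonic cluster was 94.3 ± 4.96% in Young STD (n = 3), 99.7 ± 0.68% in Aged STD (n = 4) and 98.0 ± 3.98% in Aged ENR (n = 4). The body of Cdkn1a was nearly unmethylated, at 0.77 ± 0.90% (n = 4), 0.29 ± 0.76% (n = 6) and 1.10 ± 2.40% (n = 6).

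Trp53, which encodes p53 (chr11:69580359-69591873, plus strand), had 44 measured cytosines. Its promoter was 6.05%, 7.24%, 4.80%, 5.56% and 9.46% in Young STD (6.62 ± 1.82%), 4.18% to 10.7% in Aged STD (median 7.31%, mean 7.25 ± 2.06%, n = 7) and 5.16% to 9.0% in Aged ENR (median 6.19%, mean 6.45 ± 1.34%, n = 7). These ranges overlap throughout. A single methylated cytosine at an internal start raised the value, and within 1000 bases of the outermost start the means were 1.50%, 2.41% and 1.23%. The body was at 20.5 ± 3.98%, 20.1 ± 2.38% and 21.1 ± 2.29%. In 3 intronic cytosines at positions 1386 to 1453 all 7 Aged ENR mice were at 0%, while Young STD averaged 2.81 ± 3.72% and Aged STD 2.79 ± 4.45% (n = 6). The Aged ENR difference from Young STD of -2.81 points had an exact permutation p of 0.0455 and a limma adjusted p of 0.790, and it was -0.17 points in library series 27 and -6.76 in series 37. Without Young STD replicate 5, at 7.97%, it was -1.52 points. The Aged ENR difference from Aged STD was -2.79 points (SE 1.54, exact permutation p = 0.021, limma adjusted p = 0.942), at -5.12 points in series 27 and -0.46 in series 37. Aged STD replicate 4 lay there at 11.3%, and without it the difference was -1.08 points. Upstream of the gene, 17 flank cytosines at positions -1742 to -1416 were 1.03 ± 0.76% in Young STD, 4.06 ± 4.37% in Aged STD and 0.77 ± 0.88% in Aged ENR. Aged ENR differed there from Aged STD by -3.29 points (SE 1.57, exact permutation p = 0.0478, limma adjusted p = 0.942), and the ranges overlapped. Without Aged STD replicate 7, at 11.4%, the difference was -2.06 points.

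Rb1, the pocket protein that represses E2F targets (chr14:73183673-73325822, minus strand), had 65 measured cytosines. Its promoter (56 cytosines, observed-to-expected CpG ratio 1.00) was 1.70%, 2.07%, 0.57%, 0.58% and 0.17% in Young STD (1.02 ± 0.82%). It was 0.61 ± 0.46% in Aged STD and 1.09 ± 1.03% in Aged ENR, where the highest mouse had 2.25%. The body (9 cytosines) was 27.2%, 21.2%, 21.4%, 44.8% and 41.0% in Young STD. It ran from 4.40% to 36.8% (median 23.6%) in Aged STD and from 14.6% to 27.2% (median 23.7%) in Aged ENR. The means of 31.1 ± 11.1%, 23.3 ± 11.04% and 22.3 ± 4.48% overlapped, and the Aged ENR difference from Young STD was -8.82 points (SE 4.52, limma adjusted p = 0.730). By the library series named in the labels it was -0.63 points in series 27 and -21.0 in series 37, and without Young STD replicate 4 it was -5.41 points.

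Sirt1 (chr10:63319005-63381704, minus strand) deacetylates Trp53, FoxO factors and histones, and 60 of its cytosines were measured. The stretch near an internal annotated start is shown because it was methylated in every group, unlike the starts of the coding transcripts.
Sirt1 internal annotated start, chr10:63325984-63326184: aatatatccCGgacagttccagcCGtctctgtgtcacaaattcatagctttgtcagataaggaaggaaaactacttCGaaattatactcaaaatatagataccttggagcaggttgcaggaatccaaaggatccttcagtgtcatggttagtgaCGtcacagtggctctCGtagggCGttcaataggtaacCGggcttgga

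The 7 CpGs of that stretch averaged 91.7% in Young STD, 89.8% in Aged STD and 94.9% in Aged ENR. The 27 cytosines near the shared coding start at position 42672 were 0.026 ± 0.38% in Young STD, 1.78 ± 1.74% in Aged STD (n = 7) and 1.92 ± 3.76% in Aged ENR (n = 6). Aged ENR replicate 3 reached 9.47%, and without it the Aged ENR mean was 0.41 ± 0.75% (n = 5). The Sirt1 promoter over all starts (53 cytosines) was 13.1%, 13.4%, 16.8%, 12.0% and 14.4% in Young STD (13.9 ± 1.82%), 5.25% to 15.0% in Aged STD (median 13.7%, mean 12.4 ± 3.32%, n = 7) and 12.5% to 16.3% in Aged ENR (median 13.2%, mean 13.8 ± 1.38%, n = 7). Aged STD replicate 4 was the low mouse at 5.25%, and without it the mean was 13.6 ± 1.13%. Within 1000 bases of the outermost start the Young STD mean of 7.11% came down to 2.75 ± 2.56% without Young STD replicate 3, which lay at 24.6%, against 0.41% in Aged STD and 1.96% in Aged ENR. Without Aged ENR replicate 2, at 9.67%, the Aged ENR mean there was 0.68 ± 1.46% (n = 6). The body was 64.9%, 57.5%, 61.9%, 61.4% and 76.4% in Young STD, 36.6% to 65.1% in Aged STD and 35.6% to 74.9% in Aged ENR, with medians of 59.7% and 57.5%. Aged STD lay below Young STD by 10.6 points on average (difference -10.6, SE 5.86, limma adjusted p = 0.628), with overlap. The libraries fall into 2 series by their labels, 27 and 37, each with mice of all groups, and this difference was -1.46 points in series 27 and -21.2 in series 37.

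Sirt6 (chr10:81621785-81627797, minus strand) acts at telomeres and in DNA repair, and 18 of its cytosines were measured. The stretch upstream of its start is shown because it was intermediate in every group.
Sirt6 upstream of the start, chr10:81627952-81628177: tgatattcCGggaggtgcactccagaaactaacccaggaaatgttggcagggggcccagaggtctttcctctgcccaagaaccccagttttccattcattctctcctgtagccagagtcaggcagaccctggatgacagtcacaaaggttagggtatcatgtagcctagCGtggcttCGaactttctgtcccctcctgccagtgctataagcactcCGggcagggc

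These 4 CpGs were 26.5 ± 13.4% (n = 3) in Young STD, 29.4 ± 11.9% (n = 7) in Aged STD and 25.2 ± 16.6% (n = 7) in Aged ENR, while the 12 cytosines inside the gene near the start were 1.01%, 0.82% and 0.28%. Together they gave a Sirt6 promoter of 5.40%, 8.07%, 9.41% and 6.79% in the 4 Young STD mice measured (7.42 ± 1.72%). Aged STD ran from 4.25% to 29.8% (median 7.85%) and Aged ENR from -0.26% to 13.04% (median 5.37%, mean 5.55 ± 5.02%). Aged STD replicate 4 was again apart at 29.8%, and leaving it out moved the Aged STD mean from 10.5 ± 8.74% to 7.30 ± 2.19% (n = 6). That mouse had no value for the 12 cytosines inside the gene, so its promoter value came from the upstream stretch, at 50%. Aged ENR replicate 2 had 52.2% in that stretch and, with a value inside the gene, 13.04% for the promoter.

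Foxo1 (chr3:52268336-52353221, plus strand) had 97 measured cytosines, 43 in its promoter and 54 in its body. The promoter was 0.20%, 0.96%, 0.17%, 1.32% and -0.35% in Young STD (0.46 ± 0.67%), -0.17% to 1.79% in Aged STD (median 0.81%, mean 0.93 ± 0.72%) and 0.19% to 3.0% in Aged ENR (median 0.78%, mean 0.98 ± 0.95%). In Young STD it was the lowest promoter of the 10 genes, at percentile 7.27 of all promoters, while in Aged STD the Rb1 promoter was lower (0.61%). Low methylation reached into the first intron, where 40 cytosines at positions 1185 to 1816 averaged 0.26%, 1.00% and 0.97%. The body was 6.46 ± 0.69%, 6.33 ± 1.88% and 7.46 ± 3.30%, with Aged ENR spread from 3.06% to 12.5%.

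Tert (chr13:73626911-73649843, plus strand) had 27 measured cytosines. Its first coding exon with the adjoining intron and an internal annotated start are shown because they lie at opposite ends of the scale.
Tert first coding exon, chr13:73627030-73627295: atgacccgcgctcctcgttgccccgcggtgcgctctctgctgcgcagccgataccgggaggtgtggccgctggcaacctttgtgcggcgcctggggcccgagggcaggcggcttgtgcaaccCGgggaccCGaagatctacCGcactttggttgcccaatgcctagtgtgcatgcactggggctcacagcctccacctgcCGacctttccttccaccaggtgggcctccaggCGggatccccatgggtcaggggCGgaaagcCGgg
Tert internal annotated start, chr13:73637211-73637421: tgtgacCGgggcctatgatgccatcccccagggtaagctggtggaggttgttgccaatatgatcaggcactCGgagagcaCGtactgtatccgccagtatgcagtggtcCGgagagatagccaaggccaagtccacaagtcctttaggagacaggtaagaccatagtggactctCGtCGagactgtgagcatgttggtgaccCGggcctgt

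The 7 measured CpGs of the first stretch averaged 5.78% in Young STD, 2.86% in Aged STD and 3.68% in Aged ENR, and the 7 of the second averaged 97.0%, 97.0% and 94.8%. The Tert promoter over all starts was therefore an average of both kinds, 42.6 ± 1.82%, 41.0 ± 1.09% and 41.3 ± 2.24%. At the outermost start (10 cytosines) Young STD mice had 7.97%, 2.89%, 3.88%, 1.96% and 5.39% (4.42 ± 2.35%). Aged STD mice had 1.48% to 4.13% with a median of 1.89% (2.18 ± 0.89%, n = 7), and Aged ENR mice 0.83% to 4.62% with a median of 3.23% (3.0 ± 1.55%, n = 7). The groups overlapped, and the Aged STD difference of -2.24 points (SE 1.01) had an exact permutation p of 0.0240 and a limma adjusted p of 0.709. Without Young STD replicate 1, at 7.97%, the Young STD mean was 3.53 ± 1.46% (n = 4) and the difference -1.35 points. The body was highly methylated in every mouse measured, at 93.2 ± 5.49% (n = 5), 95.1 ± 8.38% (n = 5) and 98.4 ± 1.43% (n = 4).

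Lmnb1 (chr18:56707813-56753424, plus strand) had 70 measured cytosines. The promoter was 0.66%, 0.85%, 1.67%, 0.0062% and 0.26% in Young STD (0.69 ± 0.64%), 1.05 ± 1.2% in Aged STD and 1.13 ± 1.39% in Aged ENR. The body was 33.6%, 44.0%, 27.1%, 34.0% and 27.6% in Young STD (33.3 ± 6.83%), 17.7% to 35.1% in Aged STD (median 30.5%, mean 28.5 ± 6.89%) and 11.2% to 45.5% in Aged ENR (median 30.7%, mean 30.7 ± 10.9%). Among the 23 body cytosines, 9 intronic ones at positions 34731 to 35045 formed an intermediate cluster. They were 34.6%, 53.9%, 32.0%, 24.8% and 34.4% in Young STD (35.9 ± 10.8%), 10.2% to 33.7% in Aged STD (median 27.8%, mean 23.8 ± 9.51%) and 13.2% to 65.8% in Aged ENR (median 28.4%, mean 32.5 ± 16.9%). The Aged STD difference of -12.1 points (SE 7.14) had an exact permutation p of 0.0669 and a limma adjusted p of 0.774, and it was -7.64 points without Young STD replicate 2. Aged STD replicates 3 and 6, the lowest at 10.2% and 11.8%, are among the 3 libraries that stood apart. The remaining library of these, Aged STD replicate 4, lay at 27.8%.

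**Figure D3:**
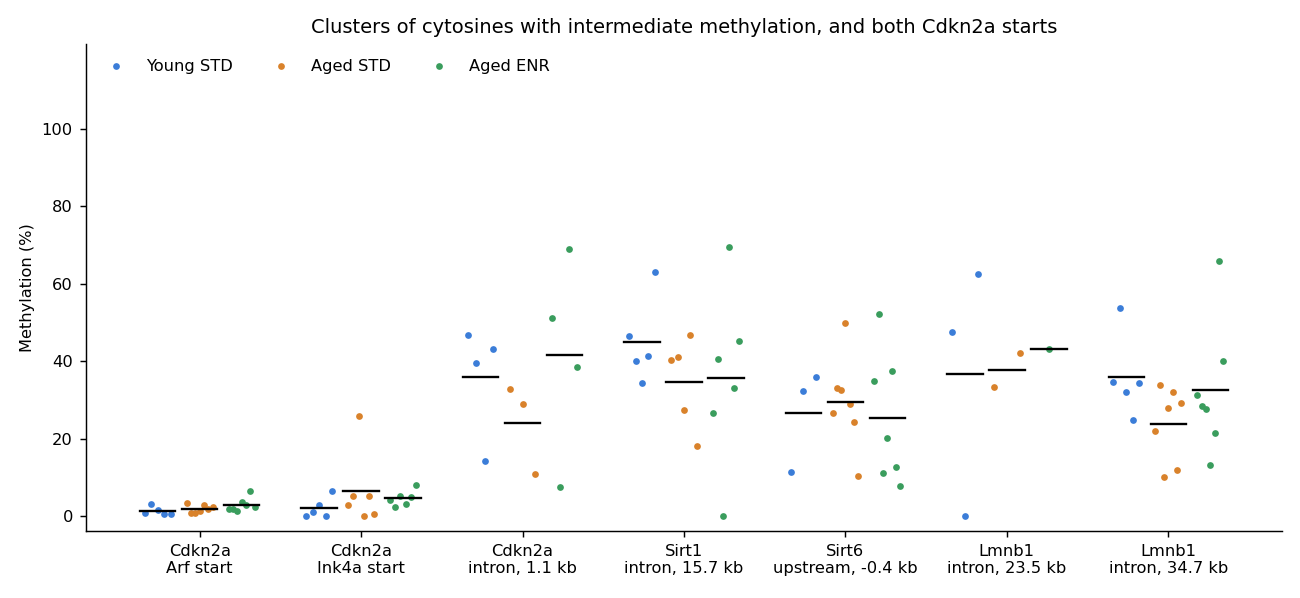
Site-adjusted methylation (percent, y axis) of clusters of neighbouring cytosines (x axis), with a point for each mouse and a bar for the group mean in Young STD (blue), Aged STD (orange) and Aged ENR (green). The Arf start of Cdkn2a is near 0%, Aged STD replicate 3 stands at 25.8% at Ink4a, and the intermediate clusters, labelled by feature and distance from the outermost start, spread widely within each group.

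Promoter and body were also read within each mouse, as plain means of the cytosines it had, with at least 3 in each. No test was made, since mice differ in which cytosines they hold and the same cytosines recur from mouse to mouse. The body was higher in all 19 mice for Foxo1 and Lmnb1, in all 17 for Sirt1 and in all 14 for Tert. It was higher in 17 of 18 mice for Rb1, 14 of 19 for Cdkn2a, 13 of 18 for Trp53 and 10 of 13 for Cdkn2b. The median differences (body minus promoter) were 3.42 points for Cdkn2b, 3.60 for Foxo1, 3.92 for Cdkn2a, 13.98 for Trp53, 24.5 for Rb1, 28.7 for Lmnb1, 41.8 for Sirt1 and 53.5 for Tert. For Cdkn1a the mice are given by whether the 3 methylated exonic cytosines of its promoter were measured. The body was lower in all 9 mice in which any of them was measured, and lower in 3 and higher in 3 of the 6 mice without them.

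The comparison of Aged STD with Young STD asked how these loci differ with age. Of the 10 promoters 7 were higher in Aged STD and 3 lower, while 52.9% of all promoters were lower. Their median difference was 0.43 points, against -0.08 over all promoters. Of the 9 bodies 8 were lower, with a median of -3.40 points against -3.03 over all bodies, of which 72.0% were lower. Bodies were lower at 6 of 9 in library series 27 and at 8 of 9 in series 37, at 7 of 9 without Aged STD replicates 3, 4 and 6 (median -1.60 points), and at 6 of 9 with the global methylation of each mouse in the model (median -0.46 points). The 3 mice left out there are those with low methylation over the whole table, and the part of this in the body differences was not tested. No region of the 10 genes was called by limma at an adjusted p under 0.05, nor was any of the 31507 regions tested (0% called). At an unadjusted p under 0.05 there were 0 member regions, compared with 8.73% of all regions. The lowest adjusted p of a member was 0.608, for the Cdkn2b body. That difference was -11.7 points with 3 Young STD mice, -4.22 without Young STD replicate 5 and -20.3 without Young STD replicate 1. The groups overlapped in all 19 regions, while they did not overlap in 1.57% of the 31576 regions with at least 3 mice in each group. The widest 95% interval reached 9.18 points to either side of the difference for a promoter (Sirt6) and 14.3 for a body (Rb1). Among single cytosines, limma called 0 of 301 tested in the 10 genes and 0% of the 527601 in the whole table (a difference over 25 points with an adjusted p under 0.05). An unadjusted p under 0.05 was reached by 5 of the 301, 4 of them lower in Aged STD, against a background of 4.42%. A difference over 25 points was seen at 11 of the 301 (3.65%), against 9.35% of all cytosines tested. Most member cytosines were below 10%, which leaves little room for a fall of that size. Cytosines over 25 points and lower were 10 of the 301 (3.32%), against 7.19% of all, and among all cytosines over 25 points 76.8% were lower.

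The comparison of Aged ENR with Aged STD asked how lifelong enrichment differs from standard housing at the same age. It uses the same 7 Aged STD mice as the comparison with age, with opposite sign, so a low Aged STD value enters both. The promoters were split, with 6 higher and 4 lower in Aged ENR (median 0.07 points, 0.09 over all promoters, of which 46.8% were lower). Of the 9 bodies 8 were higher, with Rb1 the exception, and their median was 2.22 points against 1.08 over all bodies, of which 37.6% were lower. In library series 27 bodies were higher at 5 of 9, in series 37 at 6 of 8, and without Aged STD replicates 3, 4 and 6 at 7 of 9 (median 1.13 points). The limma test called 0 member regions and 0% of the 31481 regions tested, and the lowest member adjusted p was 0.950. An unadjusted p under 0.05 was reached by 0 member regions and by 4.53% of all. The difference with the largest size among promoters was Sirt6, at -4.97 points (SE 3.50, 95% interval -12.6 to 2.66). It was -1.76 points without Aged STD replicate 4, whose value came only from the stretch upstream of the gene. Among bodies the largest difference was Cdkn2b, at 6.88 points (SE 5.62, 95% interval -6.07 to 19.8). It was -1.04 points without Aged ENR replicate 2 and 13.7 without Aged ENR replicate 3. Among single cytosines, 0 of 314 were called against 0% of the 530262 tested. An unadjusted p under 0.05 was reached by 5 of them, against 2.25%, and a difference over 25 points by 9 (2.87%), against 7.16%. Over 25 points and lower in Aged ENR were 5 of the 314 (1.59%), against 2.62% of all, and among all cytosines over 25 points 36.6% were lower.

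The comparison of Aged ENR with Young STD shares its samples with both comparisons above, so its values are set beside them only as levels. Promoters were higher at 6 genes and lower at 4, while 50.9% of all promoters were lower. Bodies were lower at 5 and higher at 4, while 65.2% of all bodies were lower. With global methylation in the model, member bodies were lower at 2 of 9. No member region was called (0% of 31681 regions), 0 reached an unadjusted p under 0.05 (7.01% of all), and the lowest adjusted p in limma was 0.723, for the Cdkn2b promoter. Among single cytosines, limma called 0 of 280 and 0% of the 522279 tested. An unadjusted p under 0.05 was reached by 6, against 3.95%, and a difference over 25 points by 6 (2.14%), against 7.60%. Over 25 points and lower were 5 of the 280 (1.79%), against 5.21% of all, and among all cytosines over 25 points 68.5% were lower.

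**Figure D4:**
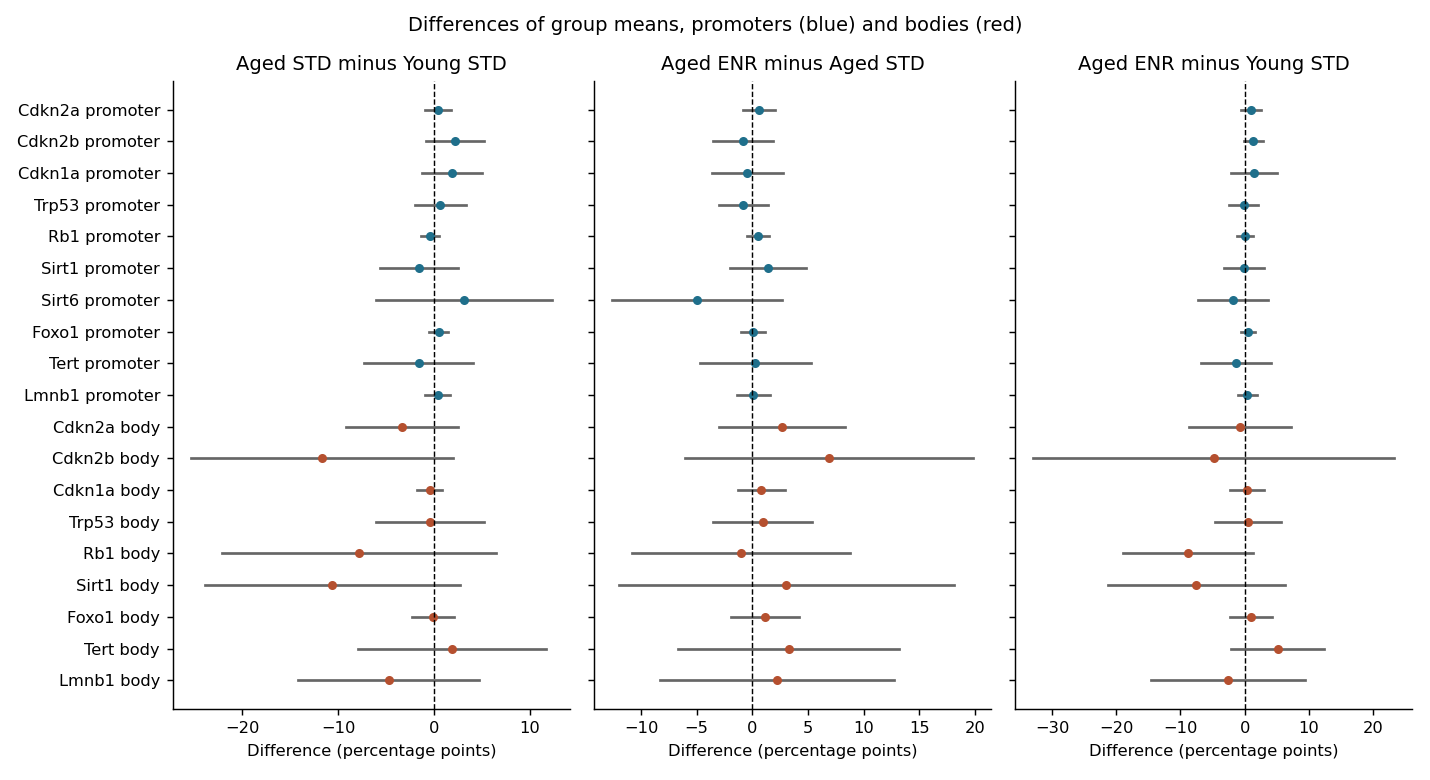
Difference of group means (percentage points, x axis) for each promoter (blue) and body (red) of the 10 genes (y axis) in the 3 comparisons, with lines for the approximate 95% interval from the moderated standard error. All 57 intervals include 0 and none of the 57 differences was called, while 8 of 9 bodies lie below 0 for Aged STD minus Young STD and 8 of 9 above 0 for Aged ENR minus Aged STD, which share the Aged STD mice with opposite sign.

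Single cytosines measured in every mouse compared were then read individually: 52 for Aged STD against Young STD, 55 for Aged ENR against Aged STD and 60 for Aged ENR against Young STD. The groups separated without overlap at 0 of them, against 0.356%, 0.0136% and 0.275% of all cytosines measured in every mouse compared, and those with the largest differences are given here. An intronic cytosine of Lmnb1 (chr18:56742858, minus strand) was 39.4%, 17.4%, 26.9%, 42.9% and 100% in Young STD. It was 0% in 4 of 7 Aged STD mice and at most 22.6%, and 0% in 4 of 7 Aged ENR mice and at most 44.1%. The means were 45.3%, 6.04% and 14.9%, so that Aged STD was lower by -39.3 points (SE 13.1, exact permutation p = 0.00253, limma adjusted p = 0.760). The difference was -24.5 points in series 27 and -61.9 points in series 37, and -25.6 points without Young STD replicate 5 at 100%. This CpG lies in the intermediate intronic cluster described above.

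In Cdkn2a, a cytosine at position -972 was 56.2%, 10.3%, 0%, 0% and 50.0% in Young STD and 0% in all 7 Aged ENR mice (difference -23.3 points, SE 9.43, exact permutation p = 0.0455, limma adjusted p = 0.776). Without Young STD replicate 1 the difference was -15.1 points. In Aged STD it was 0% in 5 of 6 mice. Closer to Arf, at position -289, all 5 Young STD mice were at 0% and Aged STD mice ran from 0% to 28.6% with a mean of 10.6% (SE of the difference 5.37, exact permutation p = 0.0808). These differences of opposite sign lie within the same promoter window.

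At Sirt6 position -163, all 7 Aged ENR mice were at 0%, while Aged STD mice ran from 0% to 31.2% with a mean of 14.4% (difference -14.4 points, SE 5.23, exact permutation p = 0.0699). At Sirt1 position 332, 6 of 7 Aged STD mice were at 0% and replicate 1 at 42.7%, and Aged ENR mice ran from 0% to 100% with a mean of 24.1% (exact permutation p = 0.241), or 11.5% without replicate 2 at 100%. The Young STD mice measured there had 39.5%, 36.1%, 0% and 38.1%. Both positions show mice that jump between 0% and high values.

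At Trp53 position 783 a single mouse, Aged STD replicate 4 at 66.7%, made the whole difference, since the other 18 mice were at 0%. At Tert position 24879, downstream of the gene, Aged STD replicate 3 lay at 10.5% and the remaining 6 Aged STD mice between 70.0% and 100%. Without replicate 3 the difference of Aged STD from Young STD (90.8%) went from -19.4 to -9.22 points, and that of Aged ENR (89.1%) from Aged STD from 17.6 to 7.48 points. In Foxo1, Aged ENR lay above Young STD at position 2162 (16.9% against 3.33%, exact permutation p = 0.116) and at position 2089 (12.4% against 2.84%, exact permutation p = 0.0682). Position 2088 is the other strand of the CpG at 2089, and there Aged ENR was lower, at 2.65% against 8.88%. The strands of this CpG therefore differed in opposite directions.

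**Figure D5:**
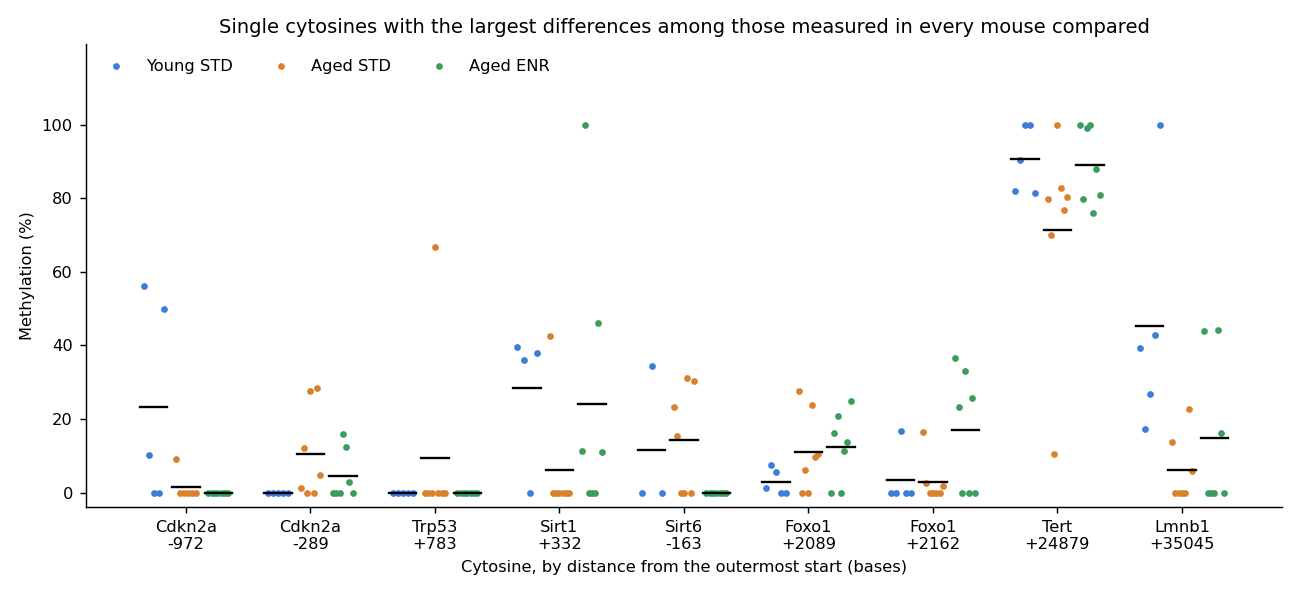
Methylation (percent, y axis) of the single cytosines with the largest differences among those measured in every mouse compared, labelled by gene and position from the outermost start (x axis), with a point for each mouse and a bar for the group mean in Young STD (blue), Aged STD (orange) and Aged ENR (green). At Trp53 position 783 a single Aged STD mouse lies at 66.7% and all others at 0%, and the groups overlap at every cytosine.

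Neighbouring cytosines were also joined into clusters with gaps of at most 200 bases. Of the 63 clusters at the 10 genes 42 had at least 3 cytosines, and of these 31 were below 10%, 5 between 10% and 80% and 6 above 80%. The intermediate clusters were the Cdkn2a intron, the Sirt6 upstream stretch, a Sirt1 intron (45.1 ± 10.99% in Young STD, 34.67 ± 11.7% in Aged STD and 35.8 ± 22.9% in Aged ENR) and both Lmnb1 introns. None of the member clusters was called by limma in Aged STD against Young STD, where 0.00434% of 69185 clusters were called, nor in the other comparisons, where 0% of 69144 and 0% of 69934 were called. Unadjusted p-values under 0.05 were reached by 2 of 40 in Aged STD against Young STD (6.98% of all), 2 of 41 in Aged ENR against Aged STD (4.07% of all) and 2 of 40 in Aged ENR against Young STD (6.23% of all), all of them lower in the first group. In Aged ENR against Aged STD these were a cluster downstream of Cdkn2a (1.26% in 6 mice against 11.4% in 3) and a Rb1 intron (2.53% in 4 mice against 14.2% in 3). All 3 Aged STD mice measured in the Rb1 intron were of library series 37, while the Aged ENR mice came from both series.

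A wider list of 67 genes of the same pathways was set beside the members: Trp53 and checkpoint genes, cell cycle genes, Polycomb repressors, sirtuins, insulin and Tor signalling, telomere and lamina proteins, repair genes and secreted factors. In Aged STD against Young STD, limma called 0 of its 59 tested promoters and 0 of its 30 bodies. An unadjusted p under 0.05 was reached by 7 of the 59 promoters, against 6.40% of all promoters. It was reached by 5 of the 30 bodies, against 12.2% of all bodies. Of the 30 bodies 22 were lower, as were 72.0% of all bodies. In Aged ENR against Aged STD 0 were called. There 4 of 59 promoters were under 0.05, against 4.45% of all, and 3 of 30 bodies, against 4.65%. Of these bodies 22 were higher, while 37.6% of all bodies were lower. In Aged ENR against Young STD 0 were called, with 1 of 59 promoters under 0.05, against 5.67% of all, and 5 of 32 bodies, against 9.01%.

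Of this list the regions with the largest age differences were read further. The body of Lmna, the A-type lamin gene, was 57.9 ± 6.88% (n = 5) in Young STD, 36.7 ± 9.57% (n = 6) in Aged STD and 42.7 ± 9.68% (n = 6) in Aged ENR. Every Aged STD mouse lay below every Young STD mouse there (difference -21.2 points, SE 5.21, exact permutation p = 0.00866, limma adjusted p = 0.365). With promoters taken at the outermost start only, which changes the cytosines counted as body, the difference was -5.42 points, and by library series it was -15.7 and -31.7 points in 27 and 37. The promoter of Dkc1, an X-linked telomerase cofactor, was 23.8 ± 11.8%, 7.04 ± 9.35% and 22.3 ± 18.01%, with overlap (limma adjusted p = 0.458 for Aged STD against Young STD). In the other direction, the body of Foxo4, an X-linked gene of the Foxo1 family, was 57.4 ± 20.3%, 70.1 ± 30.0% and 86.9 ± 13.9% (n = 5 each). The Foxo4 difference between Aged STD and Young STD was 38.1 points in library series 27 and -25.5 in series 37, and it was not called (limma adjusted p = 0.802).

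As a check of the tissue, promoters of cell type markers were read in Young STD. Of the 23 markers 16 had a tested promoter, and no microglia gene was among them. The neuronal genes Prox1, Neurod1, Rbfox3 and Dsp, listed for granule neurons, were at 2.18%, 0.33%, 1.91% and 1.25%. The oligodendrocyte genes Mag, Sox10, Mbp and Olig2 were at 55.4%, 22.4%, 10.04% and 1.28%, and the astrocyte genes Aldh1l1, Slc1a3 and Aqp4 at 36.3%, 16.5% and 16.2%. The endothelial genes Flt1 and Cldn5 were at 7.09% and 2.20%, and the pyramidal neuron genes Mpped1, Fibcd1 and Man1a at 24.4%, 1.12% and 0.47%. Methylation is not expression, so these values do not measure the cell mix. With age, 20 of 20 marker bodies were lower in Aged STD (median -5.81 points against -3.03 over all bodies), as were 72.0% of all bodies. In Aged ENR against Aged STD 19 of 20 were higher (median 4.11 points against 1.08), while 37.6% of all bodies were lower. The part of these marker differences in the body differences of the 10 genes was not tested.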

How the data were processed

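The authors made RRBS libraries from single mice, mapped reads to mm10 and extracted methylation. The submitters' processing notes name Trim Galore 0.4.0, cutadapt 1.8.1, Bismark 0.16.1 and methylKit 1.5.2, while the study's methods give other releases of Trim Galore and Bismark. The deposited table holds the percent of methylated reads per cytosine and mouse, with values under 10 reads missing and no read numbers, so the study's chi-squared test of reads could not be run and coverage is unknown. No molecular identifiers are described.

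The members and gene lists were chosen with earlier results of these data known. Groups came from the labels, each sample being a separate mouse, so p-values measure the spread between mice. The study housed enriched mice together in an enclosure and standard mice in smaller groups in cages. Mice of a group may share an enclosure or cage, and the spread between enclosures was not measured. Regions followed GENCODE M21. Cytosines, regions and clusters of the whole table were tested with limma 3.58.1 (trended variance, two-sided, at least 3 mice in each group, Benjamini-Hochberg adjustment over all features). Features with the same value in every mouse compared were left out. Exact two-sided permutation tests of group labels were used for single values. Intervals of 95% are approximate, from the moderated standard error. Named cytosines were, where no groups separated, the 2 largest differences in each direction among those measured in every mouse compared. The same rule chose wider-list regions, of which 1 is not reported here. Alternatives were other variance priors, scales, filters, region definitions, covariates and mice left out. Clusters, the joint removal of 3 mice and the removal of single mice from cluster, start window and cytosine values were added after the data were seen.

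The code was tested on simulated data for Aged STD against Young STD: with 200 of 31507 regions shifted, 87 were recovered at 10 points, 127 at 20 and 173 at 40, with 0 false calls. Analyses used R 4.3.3 and Python 3.11.15, with pysam 0.24.0 for sequences and matplotlib 3.10.9 for figures.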

Additional observations from a re-analysis of the deposited data

Results flagged for a closer look

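A mouse far from the others of its group was flagged by Dixon's test, which flags about 1 in 20 groups by chance when values are normally distributed. Values here are often exactly 0%, so a single methylated mouse among unmethylated ones is flagged however small its value. Of 194 groups of values screened, 48 (24.7%) were flagged. They are not independent, since promoters, bodies, clusters and cytosines overlap, and the Cdkn2b promoter and its start cluster hold the same cytosines. Flags on values named in the text, or on clusters above 10%, follow.

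Aged STD replicate 4 held 5 of these flags, the most of any mouse, and was 1 of the 3 Aged STD libraries with a high share of promoter cytosines. It was low at the Sirt1 promoter (5.25%) and at the methylated internal Sirt1 cluster (66.8%). It was high at the Sirt6 promoter (29.8%, from the upstream stretch alone), at Trp53 position 783 (66.7%) and in the Trp53 intronic cluster at 1386 to 1453 (11.3%). Aged STD replicate 3 was high at the first exon of Ink4a in Cdkn2a (25.8%) and low at Tert position 24879 (10.5%). Aged STD replicate 6 was low in the Cdkn2a body (3.22%) and high in the Cdkn1a body (1.85%).

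The other Aged STD mice were flagged at the Cdkn2b promoter (replicate 7, 9.81%), the Lmnb1 promoter (replicate 2, 3.66%), the Tert start (replicate 2, 4.13%), the methylated Cdkn1a exon (replicate 5, 98.6%), Sirt1 position 332 (replicate 1, 42.7%), Cdkn2a position -972 (replicate 1, 9.21%) and Foxo1 position 2162 (replicate 1, 16.6%).

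In Aged ENR, replicate 1 was low at the Tert promoter (37.02%) and at its internal start (86.0%). Replicate 5 was high at the Foxo1 promoter (3.0%) and in the Cdkn1a body (5.97%). Replicate 6 was low at the methylated Cdkn1a exon (92.0%) and high downstream of Cdkn2a (7.58%) and in the upstream flank of Trp53 (2.68%). Replicate 3 was high near the shared coding start of Sirt1 (9.47%), and replicate 7 was high inside Sirt6 near its start (1.87%).

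In Young STD, replicate 1 was low in a Tert intron at 18472 to 18624 (81.5%) and high inside Sirt6 near its start (3.45%), and replicate 3 was high at Foxo1 position 2162 (16.7%). Replicate 4 was low at the Dkc1 promoter (3.59%) and at Sirt1 position 332 (0%).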

How the results depend on the processing

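For the 10 genes, limma called 0 cytosines and 0 regions in each of the 3 comparisons under every alternative run. Member cytosines with an unadjusted p under 0.05 ranged from 1 to 10 for Aged STD against Young STD, from 1 to 9 for Aged ENR against Aged STD and from 2 to 9 for Aged ENR against Young STD. Regions ranged from 0 to 2, 0 to 0 and 0 to 2. The lowest member adjusted p under any alternative was 0.397 for cytosines and 0.427 for regions. Over the whole table, a variance prior without a trend called 120, 26 and 92 cytosines in these comparisons, and all 3 groups in the fit called 34, 0 and 39, with 0 in the 10 genes.

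The replicate numbers do not pair the mice: same-numbered mice correlated between -0.0965 and 0.0779 in their deviations, 0 pairs exceeded 0.1, and only 1, 1 and 0 of 7 mice correlated best with their own number. With the replicate block, 0 member cytosines and 0 member regions were called, and 6, 4 and 3 cytosines had an unadjusted p under 0.05.

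Single differences were called under no alternative. Global methylation in the model changed the sign of 10 of 57 region differences, the joint removal of Aged STD replicates 3, 4 and 6 that of 8 of 38, and leaving out a mouse that of 51 of 710. A plain mean without site adjustment moved 13 of 57 by more than the spread between mice, for example the Tert promoter difference between Aged STD and Young STD to -17.5 points and the Cdkn1a promoter difference to 11.01 points, because mice then differ in which cytosines they hold. The depth behind each value is unknown, so a stricter read minimum was not run.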
